A study of Mus musculus with 15 samples.

Results

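The cadherins and protocadherins described here were the 90 genes, of 55359 listed by the RNA sequencing of this series, whose symbol was Cdh or Pcdh followed by a number, or a clustered protocadherin symbol (Pcdha, Pcdhb or Pcdhg), with Cdh1, Cdh2 and Cdh5 left out. The rule used symbols and no measured value, but it was set with earlier results of these data known. They were 3 type I classical cadherins, 12 type II classical cadherins, 5 atypical cadherins, 4 delta-1 protocadherins, 5 delta-2 protocadherins, 3 other protocadherins and 58 clustered protocadherins, of which 14 were alpha, 22 beta and 22 gamma. RNA came from 15 samples in 5 groups of 3. All tumor material carried the QKO alleles, which include floxed Rb1, floxed Trp53 and null Rbl1. 46LCNEC_cell was a line grown as an adherent monolayer from a lung tumor of a mouse given Ad-CMVcre into the trachea (large cell neuroendocrine carcinoma by its label, passage 17). 57SCLC_cell was a line grown in suspension from a lung tumor of a mouse given Ad-K5cre, in which a keratin promoter drives Cre (small cell lung carcinoma by its label, passage 11). 46LCNEC_allo and 57SCLC_allo were subcutaneous tumors that grew from these lines in immunocompetent syngeneic QKO mice, and Lung was normal lung of littermates of such mice. Ages were not given in the sources used here. Each line came from a tumor of its own and its replicates were culture vessels of that line (dishes or flasks A, B and C), so tests between the lines measured the spread between vessels or tumors of these lines and not between tumors of a type.

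Cadherins are calcium-dependent adhesion proteins of the cell surface. Classical cadherins bind like molecules on neighboring cells and hold the actin cytoskeleton through catenins, and the cadherin types that a cell carries help to sort it from other cells. Delta protocadherins are best known from the developing nervous system, where they act in cell contact, migration and wiring, and clustered protocadherins are chosen in combinations by single neurons.

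Library depth ranged from 9480244 reads in tumor 275 of 57SCLC_allo to 44876572 in flask C of 57SCLC_cell. Values are normalized counts, that is, reads per gene divided by the size factor of the library. A gene with at most 3 reads in every library of a group was taken as not detected there, which covers counting error only. The summed neuroendocrine markers (6 genes, among them Chga and Insm1) reached 51202 to 70985 normalized counts in 57SCLC_cell and 45595 to 57457 in 57SCLC_allo. They stayed at 33.1 to 48.8 in 46LCNEC_cell and 22.1 to 64.2 in 46LCNEC_allo, below the 177 to 199 of Lung. The 4 epithelial markers (Epcam, Krt8, Krt18 and Cldn7) summed to 70.7 to 77.3 in 46LCNEC_cell and 119 to 136 in 46LCNEC_allo, against 27324 to 30159 in 57SCLC_cell. The 7 fibroblast markers (collagen genes among them) summed to 82234 to 92731 in 46LCNEC_cell, 25 to 32.2 in 57SCLC_cell, 432572 to 854682 in 46LCNEC_allo, 40542 to 62734 in 57SCLC_allo and 27159.6 to 32386 in Lung. RNA of the neuroendocrine and epithelial markers listed here was thus nearly absent from the 46LCNEC libraries. The label rests in part on histology and protein, which were not measured here. The study also draws on RNA of these samples for it. It reports that a gene classifier of human LCNEC and SCLC separated the LCNEC from the SCLC models. It further reports that a signature of its mouse LCNEC tumors was enriched in the 46LCNEC allografts and cells. These RNA comparisons were not repeated here. The study reports NCAM, SSTR2 and CGRP by immunofluorescence in its lines and chromogranin A staining in the LCNEC allografts. The labels are used below as names of groups only. Ddx3y, a gene of the Y chromosome, had 381, 280.0 and 522 normalized counts in the 46LCNEC allografts and 0 in every 46LCNEC_cell, 57SCLC_cell and 57SCLC_allo library, so the 46LCNEC allografts held RNA that the libraries of their line did not. In Lung it had 829, 0 and 0. Of the targeted genes, Rb1 had 66.6 to 99.9 normalized counts in 46LCNEC_cell, 183 to 289.8 in 46LCNEC_allo, 229 to 777 in 57SCLC_cell, 244 to 469 in 57SCLC_allo and 247 to 329 in Lung. Trp53 and Rbl1 were read in every library at 750.4 or more. Counts over a whole gene cannot show whether its targeted exons were lost.

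Of the 58 clustered protocadherins, 57 were listed at 0 in every library. The exception was Pcdha1, the first gene of the alpha cluster, with 2.39, 17 and 6.81 normalized counts in 57SCLC_allo, 0, 1.206 and 2.08 in 57SCLC_cell, 0.747, 0 and 0 in Lung and 0 in all 46LCNEC libraries. No beta or gamma member had a read. Whether these zeros measure absence cannot be told from the counts, and why they arose was not tested. The clusters lie on chromosome 18. In GENCODE release 39, all 57 members listed at 0 lay wholly under other genes, while the reads were counted with release 27. Of 85 genes of any type inside the span of the clusters 84 were at 0, among them Taf7, which encodes a subunit of the general transcription factor TFIID. Across the genome, 595 of 778 protein-coding genes (76.5%) whose whole span lay under other genes were at 0, although at least 90% of their exon bases lay under no other exon. The share was 2666 of 20233 (13.2%) among protein-coding genes with a part of their span under no other gene. B2m, the light chain of class I histocompatibility molecules, was also at 0 in every library. The clustered protocadherins are therefore given only as listed at 0, and the shares of their isoforms were not computed.

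The 32 members outside the clusters could be described. Cdh15, a cadherin of muscle, was at 0 everywhere, and Cdh7 never passed 3 reads. Of the other 30, 10 had their highest group mean in Lung, 8 in 57SCLC_allo, 6 in 57SCLC_cell, 4 in 46LCNEC_allo and 2 in 46LCNEC_cell. All exon bases of 22 of the 32 lay under no other gene. In 7 members less than 75% did (Pcdh7, Pcdh8, Pcdh10, Pcdh12, Cdh8, Cdh9 and Cdh18), so that reads there may be missing from their counts. For Pcdh8 none did, as for the clustered members listed at 0. Unlike them it was read, with 379 to 764 normalized counts in the 57SCLC libraries. Whether its low values in other groups measure absence cannot be told. The summed level of the non-clustered members was 18788 to 20290.1 normalized counts in 46LCNEC_cell, 21644 to 27328 in 46LCNEC_allo, 16144 to 25916 in 57SCLC_cell, 19679 to 27405 in 57SCLC_allo and 23667 to 27336 in Lung. The 3 libraries of 46LCNEC_cell lay below those of 46LCNEC_allo and Lung, and the libraries of the 57SCLC groups overlapped with each of the other groups. Delta protocadherins summed to 10776 to 11909 in 46LCNEC_cell and 14746 to 19522 in 46LCNEC_allo, against 4202 to 4347 in 57SCLC_cell and 4550.5 to 4764 in 57SCLC_allo. Classical cadherins ran the other way, with 4932 to 6029.7 in 46LCNEC_cell and 3613 to 5724 in 46LCNEC_allo, and 7645 to 9409 in 57SCLC_cell and 9939 to 12152 in 57SCLC_allo. On neither sum did the libraries of the lines overlap, in cells or in allografts. The sums do not describe each member. Cdh22 alone had means of 4201 in 57SCLC_cell and 5924 in 57SCLC_allo, against 235 in 46LCNEC_cell and 15.9 in 46LCNEC_allo. In cells, the classical Cdh6 went against its sum, with 3226 in 46LCNEC_cell and 0.174 in 57SCLC_cell. The delta members Pcdh8 and Pcdh9 went against theirs, being higher in 57SCLC_cell.

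**Figure D1:**
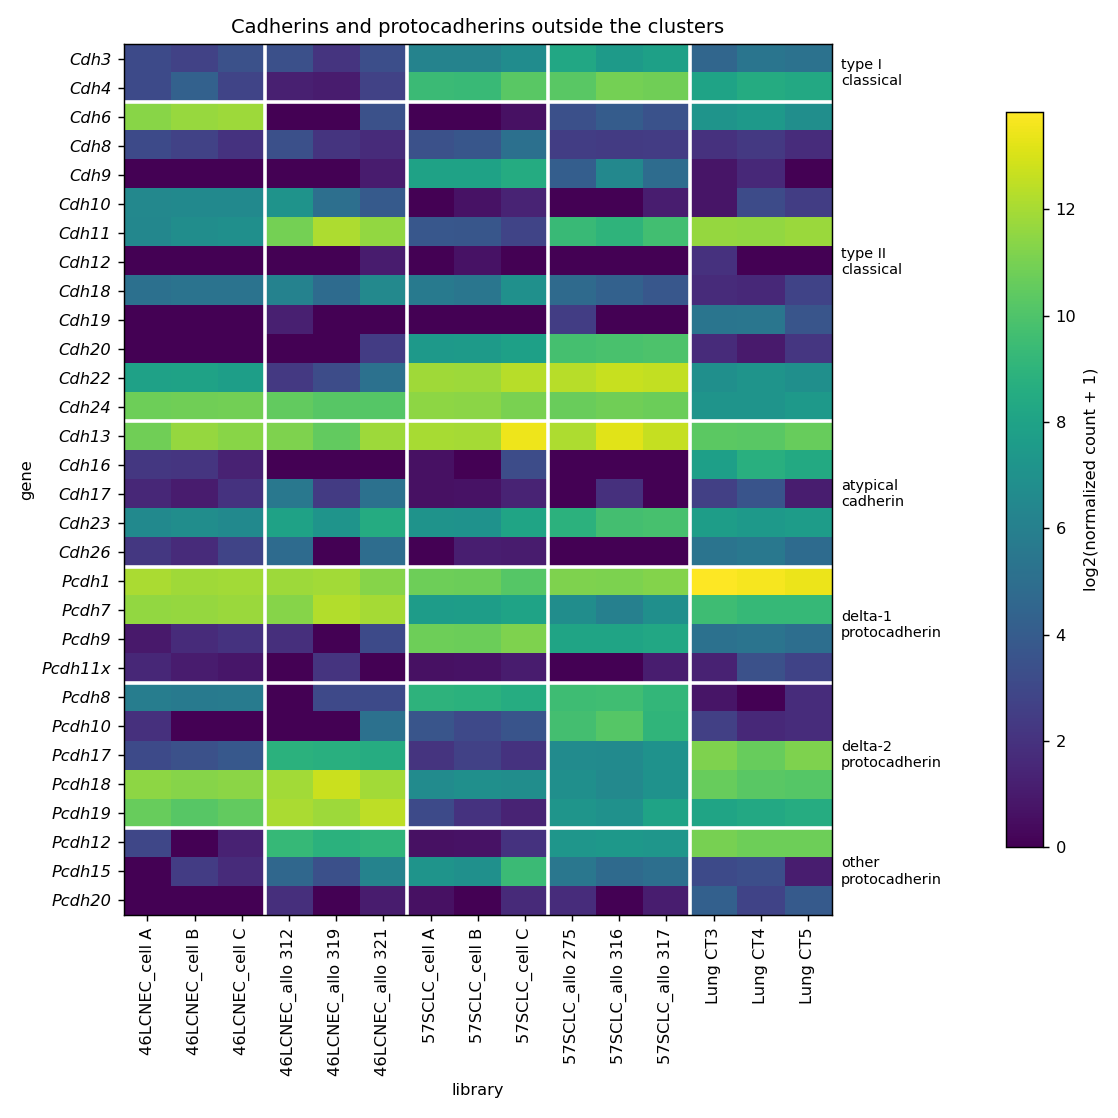
Heat map of log2(normalized count + 1) for the 30 non-clustered members with more than 3 reads in at least 1 library (rows, grouped by type) in the 15 libraries (columns, grouped by sample type). Cdh20, Cdh22, Cdh4 and Pcdh9 are bright in the 57SCLC columns, Pcdh7, Pcdh18 and Pcdh19 in the 46LCNEC columns, and Pcdh1, Pcdh12, Pcdh17 and Cdh16 in Lung.

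Levels of different genes were compared per kb of annotated exon. The leading members of 46LCNEC_cell were Pcdh18 with 501 normalized counts per kb, Cdh24 with 485 and Pcdh1 with 445. In 46LCNEC_allo they were Pcdh18 with 889.9, Pcdh19 with 429.8 and Pcdh1 with 377 per kb. A trio of Cdh24, Cdh22 and Cdh13 led in both 57SCLC groups. Per kb, Cdh24 stood at 680.3, Cdh22 at 615 and Cdh13 at 563 in 57SCLC_cell. Cdh22 came first in 57SCLC_allo with 867 per kb, followed by Cdh13 with 587 and Cdh24 with 459. In Lung, Pcdh1 stood far above the rest with 1431 per kb, ahead of Pcdh12 with 310.2 and Cdh11 with 279. The leading 3 and their order were the same in each group when exon bases under other genes were left out.

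The first question was how the cultured lines differed. Of 19 members that passed the filter (at least 10 normalized counts in 3 of the 6 libraries), 8 were higher in 57SCLC_cell and 7 were lower, by limma with thresholds of 0.01 for the adjusted p and 1 for the size of the log2 change. The same call was made for 23.9% of all 16920 genes tested as higher and for 22.2% as lower. The median log2 fold change of the 19 was 0.82, against 0.00 over all genes.

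On the 57SCLC side of this difference stood the type I cadherins Cdh3 and Cdh4, the type II cadherins Cdh9, Cdh20 and Cdh22, and the protocadherins Pcdh8, Pcdh9 and Pcdh15. Pcdh9, a delta-1 protocadherin of the nervous system, had 1780.5, 1707 and 2304 normalized counts in flasks A, B and C of 57SCLC_cell and 0.938, 2.21 and 3.08 in dishes A, B and C of 46LCNEC_cell. The 3 flasks lay far above the 3 dishes, with a mean 931 times higher (log2 fold change 9.35 with a standard error of 0.29, adjusted p = 4.9e-08). Cdh9, a type II cadherin of the brain and kidney, had 254, 248 and 357 in 57SCLC_cell and no read in 46LCNEC_cell. It was at least 86.5-fold higher in 57SCLC_cell (adjusted p = 3.1e-08). Cdh20, another type II cadherin, had 176, 188 and 230.3 in 57SCLC_cell and likewise no read in 46LCNEC_cell. It was at least 59.8-fold higher (adjusted p = 3.1e-08). Cdh22, known from the brain, was the most abundant of these with 3786, 3645 and 5172 in 57SCLC_cell. In 46LCNEC_cell it had 241, 248 and 216, so that the flasks were 17.9 times higher (log2 fold change 4.14 with a standard error of 0.14, adjusted p = 7.61e-08). Cdh4 (R-cadherin, of retina and brain) had means of 877 in 57SCLC_cell and 10.8 in 46LCNEC_cell, and Cdh3 (P-cadherin, of placenta and basal epithelium) had 83.2 and 7.67. Pcdh8, a delta-2 protocadherin, had 442 and 54.3. Pcdh15, which forms the tip links of hair cells, had 141, 122 and 684 in 57SCLC_cell, where flask C was far above its mates, and 2.24 on average in 46LCNEC_cell.

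On the 46LCNEC side stood Pcdh1, Pcdh7, Pcdh18 and Pcdh19 among the protocadherins and Cdh6, Cdh10 and Cdh11 among the type II cadherins. Cdh6, a cadherin of the kidney and of migrating neural cells, had 2684, 3353 and 3640.3 normalized counts in the dishes of 46LCNEC_cell and 0, 0 and 0.521 in the flasks of 57SCLC_cell. The flasks were at the detection floor, so Cdh6 was at least 1783-fold higher in 46LCNEC_cell (adjusted p = 8.27e-09). Pcdh19, an X-linked delta-2 protocadherin whose mutation causes epilepsy, had 1548, 1209.6 and 1452 in 46LCNEC_cell and 7.64, 3.02 and 1.56 in 57SCLC_cell. No flask came near a dish, and the means differed 345 times (log2 fold change -8.29 with a standard error of 0.41, adjusted p = 5.44e-07). Cdh10, a neural type II cadherin, had 86.3, 92.7 and 94.6 in 46LCNEC_cell and 0, 0.603 and 1.56 in 57SCLC_cell. It was at least 50.4-fold higher in 46LCNEC_cell (adjusted p = 1.69e-06). Pcdh18, a delta-2 protocadherin of mesenchyme and brain, had 2840.1, 2606 and 2717 in 46LCNEC_cell and 102, 118 and 109.9 in 57SCLC_cell (log2 fold change -4.62 with a standard error of 0.09, adjusted p = 7.73e-09). Means in 46LCNEC_cell and 57SCLC_cell were 3221 and 222 for Pcdh7, 3969 and 1539.7 for Pcdh1 and 102 and 10.3 for Cdh11, a cadherin of mesenchymal cells.

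The remaining 4 members tested were not called. Cdh24, a type II cadherin, had 1783, 1799 and 1904 normalized counts in 46LCNEC_cell and 2827, 2747 and 2127 in 57SCLC_cell, and these libraries did not overlap although the fold change stayed under the threshold (log2 fold change 0.48 with a standard error of 0.11, adjusted p = 0.00534). Cdh13 (T-cadherin, held in the membrane by a lipid anchor and a receptor for adiponectin) had 1837, 3224 and 2688 in 46LCNEC_cell and 4163, 4040.2 and 11296 in 57SCLC_cell (log2 fold change 1.19 with a standard error of 0.40, adjusted p = 0.0248), with flask C again high. Cdh18 and Cdh23 were not called either, at adjusted p = 0.0751 and 0.0343.

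The same comparison in allografts used other libraries. Of 21 members tested, 8 were higher in 57SCLC_allo and 7 lower in limma, where 16.1% of all genes were higher and 14.2% lower. With scaling to the library total, the split over all genes moved from 2821 higher and 2491 lower to 3527 and 1969, and that of the members to 10 and 7. The median of the 21 was 0.46 on the log2 scale, against 0.01 over all genes. Of 18 members tested in both settings, 12 were called the same way in cells and allografts: Cdh3, Cdh4, Cdh9, Cdh20, Cdh22, Pcdh8 and Pcdh9 were higher in 57SCLC in both, and Cdh10, Cdh11, Pcdh7, Pcdh18 and Pcdh19 lower.

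Cdh20 had 857, 944 and 1008 normalized counts in tumors 275, 316 and 317 of 57SCLC_allo and 0, 0 and 4.43 in tumors 312, 319 and 321 of 46LCNEC_allo (635 times higher, log2 fold change 9.06 with a standard error of 0.68, adjusted p = 7.57e-05). Cdh4 had 1247, 1939 and 1796 in 57SCLC_allo and 1.32, 1.05 and 5.53 in 46LCNEC_allo (630.1 times higher, log2 fold change 9.02 with a standard error of 0.49, adjusted p = 2.32e-05). Cdh22 had 5137, 6595 and 6038 in 57SCLC_allo and 3.97, 8.42 and 35.4 in 46LCNEC_allo (372 times higher, log2 fold change 8.95 with a standard error of 0.68, adjusted p = 7.57e-05). For all 3 genes every 57SCLC tumor was above every 46LCNEC tumor, and tumor 321 was the highest of the latter. On the other side, Pcdh18 had 3859.6, 6740.4 and 3912 in 46LCNEC_allo and 117, 90.6 and 130.5 in 57SCLC_allo (log2 fold change -5.38 with a standard error of 0.26, adjusted p = 1.56e-05). Pcdh7, a delta-1 protocadherin, had 2556, 4861 and 3976 in 46LCNEC_allo and 110.1, 65.1 and 119 in 57SCLC_allo (log2 fold change -5.26 with a standard error of 0.32, adjusted p = 3.11e-05). Neither gene overlapped between the tumors. Cdh10 was uneven within 46LCNEC_allo, with 136, 32.6 and 14.4, and was not detected in 57SCLC_allo (0, 0 and 1.13). It was at least 8.51-fold higher in 46LCNEC_allo (adjusted p = 0.00235), and this call was lost without tumor 275 or tumor 316 (adjusted p = 0.0136 and 0.0134). Among members not called, Cdh13 and Cdh23 were called higher without tumor 321 (log2 fold change 1.81 and 1.90) and Cdh18 lower without tumor 319 (-2.06). With all tumors kept, DESeq2 called Cdh13 and Cdh23 higher (adjusted p = 0.00031 and 0.00019). So did limma with all 15 samples in 1 fit or with scaling to the library total, whereas edgeR and TMM scaling did not.

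Pcdh10, a delta-2 protocadherin described as a tumor suppressor in several cancers, was called only in the allografts among the comparisons of lines, since in cells it did not pass the filter. It had 823, 1178 and 539 normalized counts in 57SCLC_allo and 0, 0 and 34.3 in 46LCNEC_allo, so that 1 tumor of 46LCNEC_allo, number 321, held all its reads there (log2 fold change 7.94 with a standard error of 1.37, adjusted p = 0.00274). The adjusted p rose to between 0.0104 and 0.0157 without tumor 312 or any of the 57SCLC tumors. Pcdh12 and Pcdh17, lower in 57SCLC_allo, belong with the genes that rose in the allografts of both lines below. The other called members had means of 242 and 7.09 normalized counts in 57SCLC_allo and 46LCNEC_allo for Cdh3, 694 and 5.04 for Pcdh8, 282 and 3.46 for Pcdh9, 44.3 and 0.369 for Cdh9, 178 and 4533 for Pcdh19 and 666 and 3159.8 for Cdh11.

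**Figure D2:**
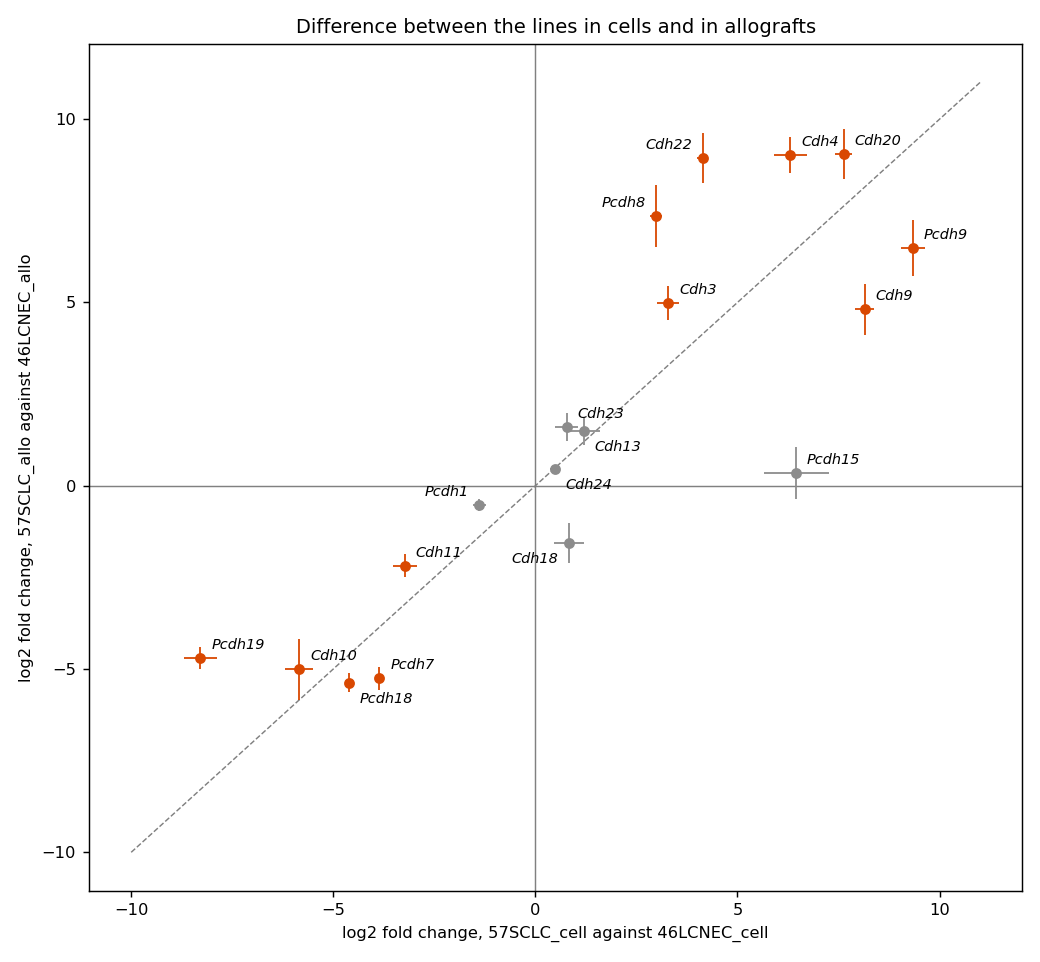
Log2 fold change between the lines in cells (horizontal axis) and in allografts (vertical axis) for the 18 members tested in both, on log2(normalized count + 1), with standard errors from limma as bars and a dashed line of equality. The 12 members called the same way in both are orange and lie in the upper right and lower left, and Pcdh15, called in cells only, lies at 0.36 in allografts.

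Sequence before the annotated start is shown for 5 members on which these comparisons turn: Cdh6 and Cdh22, which had the largest falls between 46LCNEC cells and allografts, Cdh20, which was high in 57SCLC only, and Pcdh18 and Pcdh19, the leading members of 46LCNEC_allo. Each window holds the 250 bases before the start of the gene in release 39 of the GENCODE annotation, read 5′ to 3′ on the strand of the gene from GRCm39, the build on which the reads were counted, and none of the 5 overlaps an annotated exon. Capitals mark the dinucleotide CG, which reads the same on both strands and is where vertebrate DNA is methylated.
Cdh6, chr15:13174005-13174254, minus strand: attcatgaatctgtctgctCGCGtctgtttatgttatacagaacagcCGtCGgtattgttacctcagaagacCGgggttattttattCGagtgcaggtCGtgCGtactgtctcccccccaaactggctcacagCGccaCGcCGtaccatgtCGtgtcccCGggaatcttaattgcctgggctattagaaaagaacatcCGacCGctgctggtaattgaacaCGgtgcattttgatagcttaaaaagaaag
Cdh22, chr2:165076941-165077190, minus strand: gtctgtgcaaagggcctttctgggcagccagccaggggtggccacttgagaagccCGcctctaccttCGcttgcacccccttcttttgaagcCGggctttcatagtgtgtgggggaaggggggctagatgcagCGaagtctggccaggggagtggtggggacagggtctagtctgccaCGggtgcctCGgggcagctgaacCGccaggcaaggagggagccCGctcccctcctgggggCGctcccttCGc
Cdh20, chr1:104695986-104696235, plus strand: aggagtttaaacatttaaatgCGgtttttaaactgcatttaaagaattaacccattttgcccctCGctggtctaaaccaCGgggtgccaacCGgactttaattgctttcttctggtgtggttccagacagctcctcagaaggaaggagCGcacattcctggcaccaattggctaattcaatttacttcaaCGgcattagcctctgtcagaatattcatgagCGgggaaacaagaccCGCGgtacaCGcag
Pcdh18, chr3:49711831-49712080, minus strand: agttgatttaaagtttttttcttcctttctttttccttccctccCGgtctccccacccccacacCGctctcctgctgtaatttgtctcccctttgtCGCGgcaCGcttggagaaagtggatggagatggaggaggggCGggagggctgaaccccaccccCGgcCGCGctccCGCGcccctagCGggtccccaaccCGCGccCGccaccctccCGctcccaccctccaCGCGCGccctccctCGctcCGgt
Pcdh19, chrX:132589820-132590069, minus strand: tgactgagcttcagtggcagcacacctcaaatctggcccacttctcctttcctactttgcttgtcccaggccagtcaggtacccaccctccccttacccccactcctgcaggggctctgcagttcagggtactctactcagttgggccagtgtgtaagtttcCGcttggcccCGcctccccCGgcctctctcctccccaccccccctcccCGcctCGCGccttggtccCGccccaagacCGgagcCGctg
The windows held 16, 10, 10, 21 and 9 CG in this order. At least 1 CG was found in 28 of the 32 non-clustered members and in 92% of the windows of 21627 protein-coding genes. The median was 9 CG among the members and 6 over all genes, and 18 members (56.2%) had at least 9, against 39% of all genes. The limit of 9 was set after the counts were seen. Methylation was not measured here.

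The second question was how the members changed between culture and allograft. Of 15 members tested for the 46LCNEC line, 4 were higher in 46LCNEC_allo (Cdh11, Pcdh12, Pcdh17 and Pcdh19) and 3 lower (Cdh6, Cdh22 and Pcdh8), where 14.4% of all genes were called higher and 8.45% lower. The median of the 15 was 0.19 on the log2 scale, against a median within 0.01 of 0 over all genes. Of 20 members tested for the 57SCLC line, 8 were higher in 57SCLC_allo (Cdh3, Cdh11, Cdh20, Cdh23, Pcdh10, Pcdh12, Pcdh17 and Pcdh19) and 4 lower (Cdh9, Pcdh7, Pcdh9 and Pcdh15), where 14.4% of all genes were higher and 2.29% lower. Their median was 0.62, against 0.00 over all genes. In whole tumors, fewer cells of a type and less RNA per cell cannot be told apart.

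Cdh6 showed the largest fall. It had 2684, 3353 and 3640.3 normalized counts in 46LCNEC_cell and 0, 0 and 9.96 in tumors 312, 319 and 321, a mean 972 times lower (log2 fold change -10.49 with a standard error of 0.88, adjusted p = 0.000115). Tumors 312 and 319 had no read of it, and tumor 321 was still far below every dish. The gene (chr15:13028787-13174004 in GRCm39) was among the 4 leading members per kb in culture. Cdh22 had 241, 248 and 216 in 46LCNEC_cell and 3.97, 8.42 and 35.4 in 46LCNEC_allo (log2 fold change -4.30 with a standard error of 0.67, adjusted p = 0.00167). Every tumor was below every dish. Pcdh8 had 57.2, 51.9 and 53.8 in 46LCNEC_cell and 0, 7.37 and 7.74 in 46LCNEC_allo (log2 fold change -3.72 with a standard error of 0.83, adjusted p = 0.00786). The calls of Cdh22 and Pcdh8 were lost when any of the 3 dishes was left out, with adjusted p between 0.0103 and 0.0116 for Cdh22 and between 0.0307 and 0.0357 for Pcdh8, whereas that of Cdh6 was kept without any single library. Without tumor 319, Cdh23 was called higher (log2 fold change 1.60), and without tumor 312 Cdh10 was called lower (-2.02), so that 8 of the 15 members were called in either case. With every tumor kept, DESeq2 also called Cdh23 higher (log2 fold change 1.35, adjusted p = 0.000921). Fits without a library asked for 10 normalized counts in 2 samples, not 3, and without tumor 319 this also let in Cdh17, Cdh26 and Pcdh15, all called, for 11 in all.

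In 57SCLC, Cdh9, Pcdh7, Pcdh9 and Pcdh15 fell. Pcdh9 had 1780.5, 1707 and 2304 normalized counts in 57SCLC_cell and 268, 266 and 313 in 57SCLC_allo (6.83 times lower, log2 fold change -2.76 with a standard error of 0.14, adjusted p = 1.89e-06). Cdh9 had 254, 248 and 357 in 57SCLC_cell and 16.8, 87.8 and 28.4 in 57SCLC_allo (6.47 times lower, log2 fold change -2.98 with a standard error of 0.52, adjusted p = 0.00254), where tumor 316 was the highest. Its adjusted p was 0.0175 without tumor 317. Pcdh15 had 141, 122 and 684 in 57SCLC_cell and 43.1, 26.9 and 31.8 in 57SCLC_allo (log2 fold change -2.74 with a standard error of 0.60, adjusted p = 0.00768). Without flask C its difference was smaller but had less error (log2 fold change -1.95 with a standard error of 0.27, adjusted p = 0.00107), and it was not called without any 1 of the 3 tumors (adjusted p between 0.0265 and 0.0382, 3 refits) or by edgeR on the recovered reads (adjusted p = 0.0106). Pcdh7 had means of 222 in 57SCLC_cell and 98.1 in 57SCLC_allo (2.26 times lower, adjusted p = 0.00597), a call that was lost without any 1 of the 6 libraries. Without tumor 317, 7 members in place of 12 were called, with Cdh3, Cdh9, Cdh23, Pcdh7 and Pcdh15 lost.

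Pcdh10 rose in 57SCLC. It had 11.5, 7.24 and 10.9 normalized counts in 57SCLC_cell and 823, 1178 and 539 in 57SCLC_allo, a mean 85.7 times higher (log2 fold change 6.24 with a standard error of 0.31, adjusted p = 1.99e-06). All tumors were far above all flasks, while Lung had 5.23, 1.99 and 2.34. Cdh20 rose from 176, 188 and 230.3 in 57SCLC_cell to 857, 944 and 1008 in 57SCLC_allo (4.73 times higher, log2 fold change 2.24 with a standard error of 0.14, adjusted p = 5.32e-06) and was at 2.24, 0.997 and 3.51 in Lung. Cdh3 rose from a mean of 83.2 to 242, and Cdh23, which forms hair cell tip links with Pcdh15, from 179 to 738. These calls fell away without tumor 317 (adjusted p = 0.0105 for Cdh3 and 0.0116 for Cdh23) and, for Cdh23, also without tumor 316 (adjusted p = 0.0121). Cdh4 was not called, with 702, 675 and 1255 in 57SCLC_cell and 1247, 1939 and 1796 in 57SCLC_allo (log2 fold change 0.96 with a standard error of 0.26, adjusted p = 0.0193). Flask C overlapped the tumors, and without it Cdh4 was called higher (log2 fold change 1.24 with a standard error of 0.18, adjusted p = 0.00118).

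Cdh11, Pcdh12, Pcdh17 and Pcdh19 were called higher in the allografts of both lines. Cdh11 had 82.6, 107 and 118 normalized counts in 46LCNEC_cell and 1938, 4439 and 3103 in 46LCNEC_allo (log2 fold change 4.87 with a standard error of 0.30, adjusted p = 2.91e-05). In the other line it went from 12.5, 12.1 and 6.25 in 57SCLC_cell to 675, 517 and 807 in 57SCLC_allo (log2 fold change 5.92 with a standard error of 0.30, adjusted p = 2.02e-06). Pcdh12, a protocadherin of endothelial cells, had 6.57, 0 and 1.54 in 46LCNEC_cell and 615, 463 and 531 in 46LCNEC_allo (log2 fold change 7.64 with a standard error of 0.68, adjusted p = 0.000147). For 57SCLC it had 0.545, 0.603 and 3.13 in cells and 156, 167 and 155 in allografts (log2 fold change 6.21 with a standard error of 0.41, adjusted p = 9.24e-06). Pcdh17, a delta-2 protocadherin, had 7.51, 9.93 and 13.1 in 46LCNEC_cell and 462, 416 and 375 in 46LCNEC_allo (log2 fold change 5.25 with a standard error of 0.27, adjusted p = 1.51e-05). In 57SCLC it had 3.27, 5.43 and 3.13 in cells and 101, 97.7 and 129 in allografts (log2 fold change 4.50 with a standard error of 0.29, adjusted p = 8.26e-06). In all these comparisons the lowest tumor was above the highest culture. Pcdh19 differed from the others in that it was already abundant in 46LCNEC_cell and rose there 3.23 times, from 1548, 1209.6 and 1452 to 4269, 3610.2 and 5720.4 (log2 fold change 1.67 with a standard error of 0.18, adjusted p = 0.00036), while in 57SCLC it had 7.64, 3.02 and 1.56 in cells and 148, 126 and 261 in allografts (log2 fold change 5.26 with a standard error of 0.48, adjusted p = 5.94e-05).

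Summed markers of endothelial cells, fibroblasts, leukocytes and skeletal muscle were also higher in these tumors than in the cultures. The 7 endothelial markers summed to 371 to 451 normalized counts in 46LCNEC_cell and 4467 to 7487 in 46LCNEC_allo, and to 62.7 to 87.5 in 57SCLC_cell and 2214 to 3074 in 57SCLC_allo, with 82749 to 93382 in Lung. Of the 7, 4 did not pass 3 reads in 46LCNEC_cell and 5 in 57SCLC_cell, and Tie1 and Egfl7 had no read in any culture. The fibroblast markers given above were higher in the allografts of both lines, and Lum had means of 0.736 in 46LCNEC_cell, 4515 in 46LCNEC_allo, 0 in 57SCLC_cell and 229 in 57SCLC_allo. The 5 leukocyte markers summed to 298 to 342, 2367 to 4493, 226 to 254 and 1485 to 2305 in these 4 groups. The 7 skeletal muscle markers summed to 43.1 to 447 in 46LCNEC_allo and 1226 to 1786 in 57SCLC_allo. Most of this was Des, at 179 and 1439 on average, which had 4984 in Lung. Acta1 and Pax7 did not pass 3 reads in 46LCNEC_allo, nor did Acta1, Myh4, Myog and Pax7 in 57SCLC_allo. The sums are thus mainly a reading of Des. In 46LCNEC_cell and 57SCLC_cell the 7 markers summed to 18.8 to 22.5 and 176 to 213. The 5 Schwann and glial markers summed to 92.9 to 160.0 in 46LCNEC_allo and 132 to 157 in 57SCLC_allo. In 46LCNEC_cell they had 129 to 145, which overlapped the tumors, and in 57SCLC_cell 83.2 to 108. The part of these cells in the rises of Cdh11, Pcdh12, Pcdh17 and Pcdh19 was not tested, nor was that of the cells with Y-linked RNA in the 46LCNEC allografts.

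**Figure D3:**
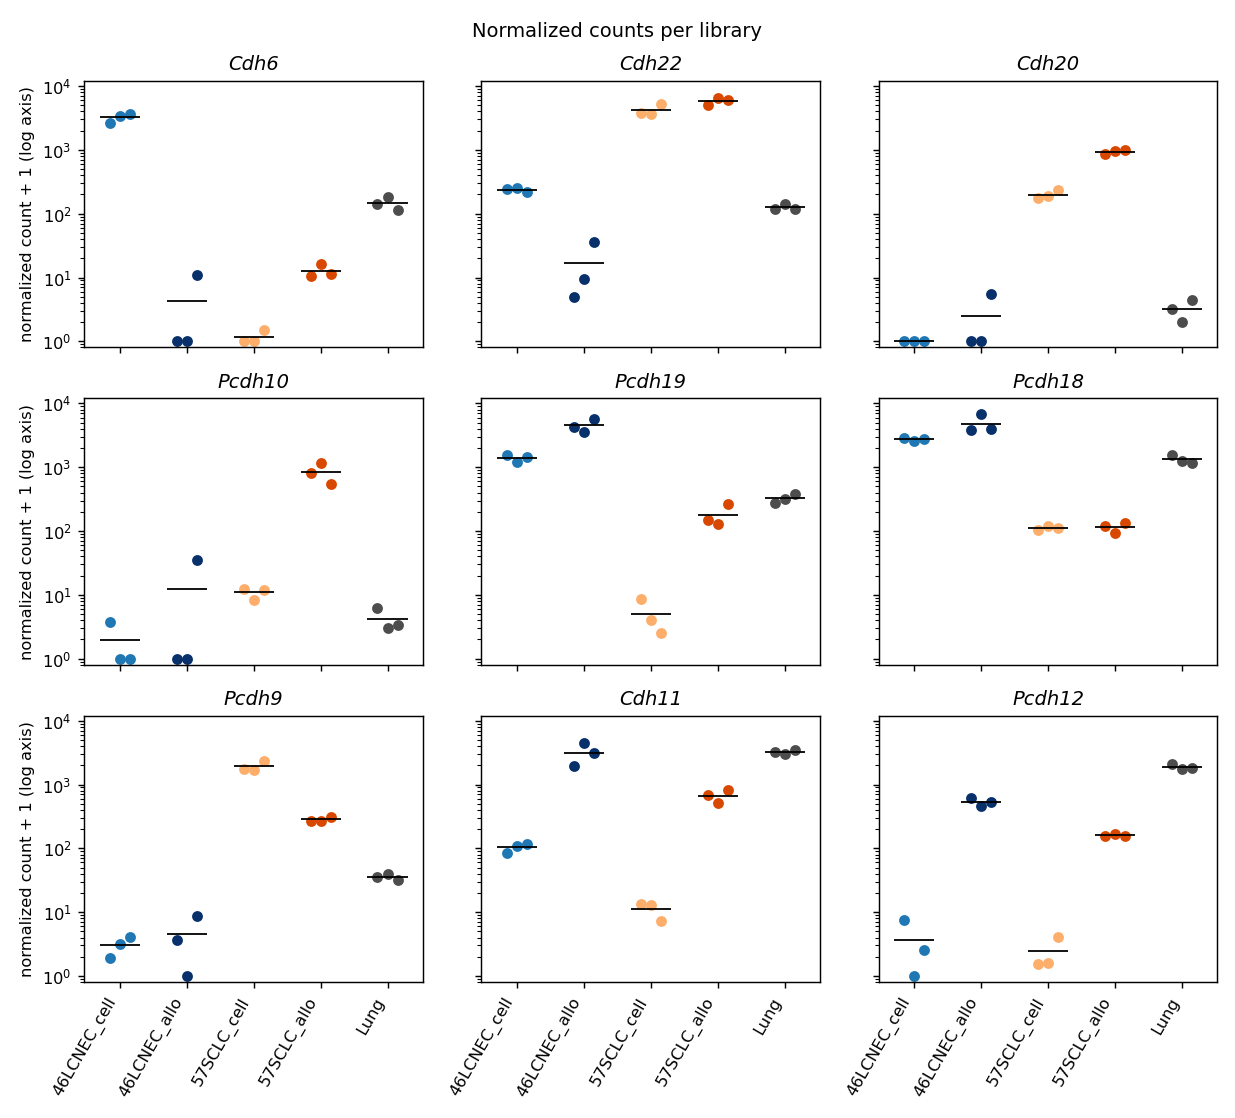
Normalized count + 1 on a log axis for 9 members in each library (points) of the 5 groups, with the group mean + 1 as a line. Cdh6 drops from a mean of 3226 in 46LCNEC_cell to a mean of 3.32 in 46LCNEC_allo, Pcdh10 appears in 57SCLC_allo, and Cdh11 and Pcdh12 are higher in the allografts of both lines than in their cells.

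Whether the difference between the lines itself changed between culture and allograft was tested by an interaction term over 12 libraries. Of 22 members tested, 5 were called with a more positive difference in allografts (Cdh4, Cdh6, Cdh22, Pcdh8 and Pcdh19) and 3 with a more negative one (Cdh9, Pcdh7 and Pcdh15), where 10.8% and 6.78% of all genes were called. Cdh6 had 2684, 3353 and 3640.3 in 46LCNEC_cell against 0, 0 and 0.521 in 57SCLC_cell. The allografts did not keep this direction, with 0, 0 and 9.96 in 46LCNEC_allo and 9.58, 15.6 and 10.2 in 57SCLC_allo. Between the allografts Cdh6 did not pass the filter. A fit of all 15 samples, and a fit without tumor 321, let it in and called it. Pcdh10 was not called in this test (log2 fold change 5.17 with a standard error of 1.59, adjusted p = 0.0236), and was called once tumor 321 was left out (log2 fold change 6.88, adjusted p = 4.75e-05), as was Cdh20 (2.24, adjusted p = 0.000561). Without tumor 319, Cdh18 (-2.89) and Pcdh9 (-3.70) were called. With all libraries kept, DESeq2 called both (-2.79 and -3.50), and limma with a pseudocount of 5 called Cdh20, Pcdh9 and Pcdh10. The call of Cdh4 was lost without any 1 of 10 libraries, that of Pcdh7 without any 1 of 10 and that of Cdh9 without any 1 of 7, of 12 in all, with adjusted p of at most 0.0268. Cdh6, Cdh22, Pcdh8, Pcdh15 and Pcdh19 stayed called without any single library.

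The third question was how the lines and tumors stood against normal lung. Each of the 4 comparisons used the same 3 lungs, so their results are given side by side without counting overlaps. Against Lung, 46LCNEC_cell had 8 of 21 members tested higher and 10 lower, with 20.6% and 35% of all genes. 57SCLC_cell had 11 of 23 higher and 11 lower, with 21.1% and 32.7% of all genes. 46LCNEC_allo had 5 of 21 higher and 10 lower, with 13.4% and 22.1% of all genes. 57SCLC_allo had 13 of 24 higher and 10 lower, with 18.9% and 26.9% of all genes. The median log2 fold change of the members tested was -0.98 for 46LCNEC_cell, -0.20 for 57SCLC_cell, -1.81 for 46LCNEC_allo and 2.05 for 57SCLC_allo. Over all genes it was -0.23, -0.12, -0.14 and -0.09, and with scaling to the library total or by TMM it ranged from -0.23 to 0.12 over these 4 comparisons. For the lines against each other, scaling to the library total moved that median to 0.23 in cells and 0.28 in allografts.

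Lung held its own set of members. Pcdh1, a protocadherin of the airway epithelium, had 14616, 12723 and 10911 normalized counts in lungs CT3, CT4 and CT5, and lower values in every culture and tumor, with means of 3969 in 46LCNEC_cell, 3357 in 46LCNEC_allo, 1539.7 in 57SCLC_cell and 2307 in 57SCLC_allo. It was called lower in all 4 (log2 fold change -1.68, -1.94, -3.06 and -2.46 in this order). Cdh16, a cadherin first found in the kidney, had 226, 417 and 338 in Lung, at most 8.34 in any culture and no read in any tumor. It was 114 times lower in 46LCNEC_cell (log2 fold change -6.41 with a standard error of 0.34, adjusted p = 1.4e-07), and at least 82.4-fold lower in 46LCNEC_allo and at least 45.6-fold lower in 57SCLC_allo. Pcdh12 had 2068, 1777 and 1792 and Pcdh17 had 2282, 1595 and 2317 in Lung. Against Lung, Pcdh12 was 696 times lower in 46LCNEC_cell (log2 fold change -9.45 with a standard error of 0.60, adjusted p = 5.18e-07), 1319 times lower in 57SCLC_cell (log2 fold change -9.76 with a standard error of 0.39, adjusted p = 2.01e-07), 3.5 times in 46LCNEC_allo and 11.8 times in 57SCLC_allo. Pcdh17 was 203 times lower in 46LCNEC_cell (log2 fold change -7.54 with a standard error of 0.23, adjusted p = 5.55e-09), 524 times lower in 57SCLC_cell (log2 fold change -8.72 with a standard error of 0.25, adjusted p = 4.61e-08), 4.94 times in 46LCNEC_allo and 18.9 times in 57SCLC_allo (log2 fold change -4.22 with a standard error of 0.18, adjusted p = 5.32e-07).

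Cdh11 had 3178, 3049 and 3488 normalized counts in Lung, 315 times the mean of 57SCLC_cell (log2 fold change -8.22 with a standard error of 0.25, adjusted p = 6.04e-08) and 31.6 times that of 46LCNEC_cell. In 46LCNEC_allo, at 1938, 4439 and 3103, it overlapped Lung and was not called (log2 fold change -0.11 with a standard error of 0.28, adjusted p = 0.746). Cdh19, a cadherin of Schwann cell precursors, had 40.4, 41.9 and 11.7 in Lung and at most 4.79 in any other library, and was called lower in all 4 comparisons. Cdh26, an epithelial cadherin, had 39.6, 45.9 and 28.1 in Lung and 27.8, 0 and 29.9 in 46LCNEC_allo, and was called lower in the other 3 comparisons. The remaining members were low. Pcdh20 had 17.9, 5.98 and 14 in Lung and at most 2.65 elsewhere, and Pcdh11x, on the X chromosome, had 1.49, 9.97 and 5.85 in Lung. Cdh12 reached at most 2.99 in any library. Cdh8, a neural type II cadherin, reached 33.9 in flask C of 57SCLC_cell and 12.1 elsewhere. These 4 did not pass the filter in any comparison. Cdh17, a cadherin of the intestine, had 45, 4.21 and 35.4 in 46LCNEC_allo and 5.23, 11 and 1.17 in Lung, and was not called in the 1 comparison that tested it (log2 fold change 1.92 with a standard error of 1.00, adjusted p = 0.138).

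Members above Lung differed by line. Pcdh8, which lies wholly under another gene, had 0.747, 0 and 2.34 normalized counts in Lung. It was higher in 46LCNEC_cell, 57SCLC_cell and 57SCLC_allo, at the means given above (adjusted p = 4.33e-06, 1.04e-06 and 1.32e-06). Cdh20 and Cdh9 were at the floor in Lung. Cdh20 was at least 56.4-fold higher in 57SCLC_cell and 267-fold in 57SCLC_allo, and Cdh9 at least 81.6-fold in 57SCLC_cell and 12.6-fold in 57SCLC_allo. Cdh22 had 118, 141 and 118 in Lung and was 33.4 times higher in 57SCLC_cell (log2 fold change 5.04 with a standard error of 0.15, adjusted p = 5.78e-08) and 47.1 times higher in 57SCLC_allo (log2 fold change 5.54 with a standard error of 0.12, adjusted p = 4.21e-08). Pcdh10 was 265 times higher in 57SCLC_allo than in Lung (log2 fold change 7.67 with a standard error of 0.40, adjusted p = 1.29e-06). Cdh13 had 1322, 1239 and 1589 in Lung, and its means were 4.7 times higher in 57SCLC_cell (log2 fold change 2.06 with a standard error of 0.37, adjusted p = 0.00128) and 4.9 times higher in 57SCLC_allo (log2 fold change 2.23 with a standard error of 0.25, adjusted p = 8.31e-05). The former had a smaller size without flask C (log2 fold change 1.58 with a standard error of 0.11, adjusted p = 1.45e-05) and was not called without lung CT3 or CT4 (adjusted p = 0.0107 and 0.0101).

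In the 46LCNEC line, Cdh6 had 141, 181 and 112 normalized counts in Lung, 22.3 times below 46LCNEC_cell (log2 fold change 4.49 with a standard error of 0.18, adjusted p = 2.41e-08) and 43.5 times above 46LCNEC_allo (log2 fold change -6.01 with a standard error of 0.96, adjusted p = 0.00178). Lung thus lay between culture and tumor, and the call against the tumors was lost without lung CT3 or CT4 (adjusted p = 0.0107 and 0.0109). Cdh10 had 0.747, 7.98 and 4.68 in Lung and was 20.4 times higher in 46LCNEC_cell (log2 fold change 4.37 with a standard error of 0.53, adjusted p = 4.79e-05). In 46LCNEC_allo limma did not call it (log2 fold change 3.21 with a standard error of 0.95, adjusted p = 0.024). DESeq2 called it higher there (log2 fold change 3.86, adjusted p = 0.00113), as did limma with all 15 samples in 1 fit (adjusted p = 0.00148). Pcdh19 had 274, 321 and 378 in Lung and was higher in 46LCNEC_cell (log2 fold change 2.11 with a standard error of 0.14, adjusted p = 6.52e-07) and 46LCNEC_allo (log2 fold change 3.79 with a standard error of 0.20, adjusted p = 2.13e-05) and lower in 57SCLC_cell (log2 fold change -6.18 with a standard error of 0.43, adjusted p = 4.77e-06). Pcdh18 had 1569.7, 1261 and 1168 in Lung, and was 2.04 times higher in 46LCNEC_cell, 3.63 times higher in 46LCNEC_allo and 12.1 times lower in 57SCLC_cell and 11.8 times lower in 57SCLC_allo (log2 fold change -3.56 with a standard error of 0.18, adjusted p = 1.03e-06). The call in 46LCNEC_cell rested on lung CT5, without which the log2 fold change was 0.95. Pcdh7 followed the same pattern, with 651 in Lung against 3221, 3798, 222 and 98.1 in 46LCNEC_cell, 46LCNEC_allo, 57SCLC_cell and 57SCLC_allo. Cdh4 had 263, 359 and 321 in Lung, above the 1.32, 1.05 and 5.53 of 46LCNEC_allo (log2 fold change -6.63 with a standard error of 0.50, adjusted p = 7.12e-05) and below the tumors of 57SCLC (log2 fold change 2.38 with a standard error of 0.19, adjusted p = 1.2e-05).

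Cdh24 and Cdh18 were called higher than Lung in all 4 comparisons. Cdh24 had 144, 142 and 177 normalized counts in Lung, 1445, 1209 and 1145 in 46LCNEC_allo (log2 fold change 3.03 with a standard error of 0.16, adjusted p = 1.98e-05) and 1647, 1846 and 1707 in 57SCLC_allo, and the means of the cultures were 1829 and 2567. Cdh18, a neural type II cadherin, was low, with 2.24, 1.99 and 5.85 in Lung and 68.9, 27.4 and 91.8 in 46LCNEC_allo (log2 fold change 3.81 with a standard error of 0.57, adjusted p = 0.0014), and means of 36 in 46LCNEC_cell, 71.7 in 57SCLC_cell and 19.1 in 57SCLC_allo. Its call in 57SCLC_allo was lost without tumor 275 or 316 or lung CT3 or CT4 (adjusted p up to 0.0137). In the remaining calls against Lung, Cdh3 (33.2 in Lung), Pcdh9 (34.6) and Cdh4 were higher in both 57SCLC groups and lower in both 46LCNEC groups, and Pcdh15 (5.87) was higher in both 57SCLC groups. Cdh22 was lower in 46LCNEC_allo, Cdh6 was lower in both 57SCLC groups, and Cdh23 (195) was higher in 57SCLC_allo. In 46LCNEC_allo the calls of Cdh3 and Cdh22 were lost without any 1 of the lungs or tumors 312 and 319 (adjusted p up to 0.0347 and 0.0268), and that of Pcdh9 without any lung or tumor 312 (up to 0.0315). The call of Pcdh15 in 57SCLC_allo was lost without any 1 of its tumors or lung CT3 (adjusted p up to 0.0183), that of Cdh19 there without tumor 317 or lung CT3 or CT4 (up to 0.0155), and that of Cdh3 in 57SCLC_cell without flask C (adjusted p = 0.0106). Gains were Cdh13 in 46LCNEC_allo without tumor 319 (log2 fold change 1.07) and in 46LCNEC_cell without dish A (1.10), Cdh23 in 46LCNEC_cell without dish B or lung CT4 (-1.05 and -1.04) and Pcdh19 in 57SCLC_allo without tumor 317 (-1.23).

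Flask C of 57SCLC_cell stood apart from flasks A and B in genes of long span. Genes of at least 500 kb took 1.68% of its counts, against 0.932% in flask A and 0.913% in flask B. Over protein-coding genes with a mean of at least 50 in the other flasks, its median log2 ratio to them was 0.97 for the 126 genes of at least 500 kb and -0.13 for the 2135 genes under 10 kb. Long members were high in it too. Pcdh15 was 5.2 times, Cdh8 3.1 times, Cdh13 2.75 times, Cdh18 2.57 times, Cdh23 2.02 times and Cdh4 1.82 times the mean of flasks A and B, whereas Cdh24 was 0.763, Pcdh1 0.679 and Cdh11 0.508 times. Pcdh9 and Pcdh7, which are also long, were 1.32 and 1.27 times. Its part in the results beyond the values given without flask C was not tested. Without flask C, all 15 members called between the cultured lines were called in the same direction.

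**Figure D4:**
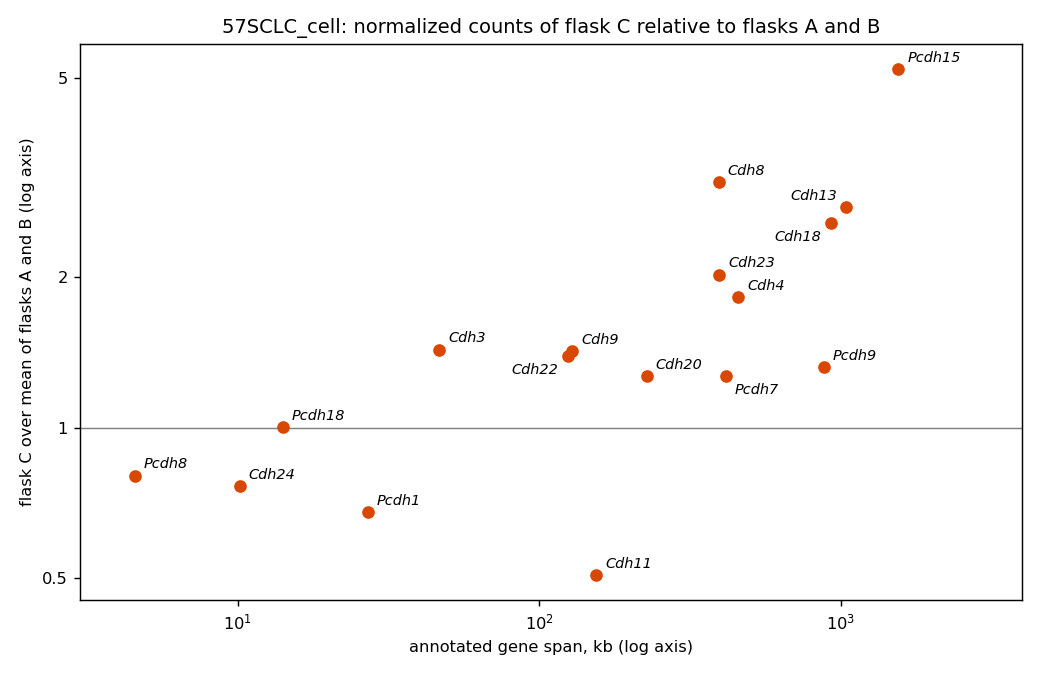
Ratio of flask C to the mean of flasks A and B of 57SCLC_cell (vertical, log axis) against annotated gene span in kb (horizontal, log axis) for the 17 members with a mean of at least 10 normalized counts in flasks A and B; the grey line marks a ratio of 1. Pcdh15, the longest, is at 5.2, and members under 30 kb are at or below 1.

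Genes that work with the members were read from the same fits. Of all genes, 23.9% were higher and 22.2% lower in 57SCLC_cell than in 46LCNEC_cell, 16.1% and 14.2% between the allografts, 14.4% and 8.45% in 46LCNEC_allo against its cells and 14.4% and 2.29% in 57SCLC_allo against its cells. Against Lung the shares were 20.6% and 35.0% for 46LCNEC_cell, 21.1% and 32.7% for 57SCLC_cell, 13.4% and 22.1% for 46LCNEC_allo and 18.9% and 26.9% for 57SCLC_allo, and the interaction called 10.8% and 6.78%. Of 10 catenins and other cytoplasmic partners of cadherins, 3 were higher and 4 lower in 57SCLC_cell than in 46LCNEC_cell (median log2 fold change 0.57). Ctnna2, the alpha-catenin of neurons, had 1573, 1572 and 3352 normalized counts in 57SCLC_cell and 1.88, 0 and 3.84 in 46LCNEC_cell (log2 fold change 9.72 with a standard error of 0.57, adjusted p = 1.57e-06). Every flask was far above every dish. Jup (plakoglobin) was also higher, with 6528 and 2822. Vcl, which links catenins to actin, and Ctnna1, the alpha-catenin of epithelia, were lower, with 977 and 4960.2 for Vcl and 6561 and 14863 for Ctnna1. Of 9 tested in allografts, 3 were higher and 0 lower in 57SCLC_allo (median 0.08), where Ctnna2 had 2085 and 2.56. Between 46LCNEC_allo and 46LCNEC_cell 0 of 9 were higher and 3 lower (median -0.83), and between 57SCLC_allo and 57SCLC_cell 0 of 9 were called by limma, edgeR or DESeq2 (median -0.02), 5 of them at an unadjusted p under 0.05 in limma. Against Lung, 0 were higher and 2 lower in 46LCNEC_cell, 2 and 5 in 57SCLC_cell, 0 and 5 in 46LCNEC_allo and 1 and 5 in 57SCLC_allo. The interaction called 4 of 10, all more positive.

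Of 29 other genes of the cadherin superfamily, 17 were tested between the cultures, of which 11 were higher and 3 lower in 57SCLC_cell (median 4.12). Between the allografts 11 of 18 were higher and 3 lower in 57SCLC_allo (median 4.17, or 4.01 with genes at the floor set to their bound). Cdh1 (E-cadherin) had 21931, 21734 and 17754 normalized counts in 57SCLC_cell and 161, 172 and 161 in 46LCNEC_cell (log2 fold change 6.94 with a standard error of 0.10, adjusted p = 3.45e-09), without overlap. Celsr3, a cadherin of planar polarity and axon tracts, had means of 9983 and 578, and Clstn3, a synaptic cadherin, 4629 and 28. Fat4, a giant cadherin of planar polarity, was lower in 57SCLC_cell, with 123 and 5265. Between 46LCNEC_allo and 46LCNEC_cell 2 of 16 were higher and 5 lower (median -0.69), and between 57SCLC_allo and 57SCLC_cell 3 of 17 were higher and 0 lower (median -0.52). Against Lung, 5 of 20 were higher and 12 lower in 46LCNEC_cell, 8 of 21 were higher and 8 lower in 57SCLC_cell, 2 of 20 higher and 10 lower in 46LCNEC_allo, and 8 of 21 higher and 9 lower in 57SCLC_allo. The interaction called 4 of 19, all more positive.

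Of 15 regulators of the clustered protocadherins, all tested, 4 were higher in 57SCLC_cell than in 46LCNEC_cell and 4 in 57SCLC_allo than in 46LCNEC_allo, the same 4 genes each time, with 0 lower (medians 0.00 and 0.20). In cells 4 of 15 is near the 23.9% of all genes, and is not a result about these regulators. They were the DNA methyltransferases Dnmt3a and Dnmt3b and the methylcytosine dioxygenases Tet1 and Tet3. Dnmt3a had 10099, 9769.7 and 9311 normalized counts in 57SCLC_cell and 2487, 1878 and 1842 in 46LCNEC_cell (log2 fold change 2.25 with a standard error of 0.12, adjusted p = 8.9e-07), and Tet1 had means of 974 and 6.91 (log2 fold change 7.06 with a standard error of 0.36, adjusted p = 6.68e-07). For both genes the flasks lay above the dishes without overlap. Against Lung, 6 were higher and 1 lower in 46LCNEC_cell, 9 and 0 in 57SCLC_cell, 2 and 1 in 46LCNEC_allo and 7 and 0 in 57SCLC_allo, and Dnmt3a rose in 46LCNEC_allo over 46LCNEC_cell while 0 of 15 were called between 57SCLC_allo and 57SCLC_cell by limma, edgeR or DESeq2, 6 of them at an unadjusted p under 0.05 in limma. The interaction called 2, Dnmt3a and Tet1, both more negative. Of 10 cytoplasmic partners of protocadherins, Cyfip2, part of the actin-regulating WAVE complex, was higher in 57SCLC_cell than in 46LCNEC_cell (3361 and 176) and was the only one called there, and Cyfip2 and Wasf1 (WAVE1) were higher in 57SCLC_allo than in 46LCNEC_allo. By limma, edgeR and DESeq2 0 of 10 were called between culture and allograft of 46LCNEC (5 at an unadjusted p under 0.05 in limma), between those of 57SCLC (3) and in the interaction (1). Against Lung, 1 was higher and 2 lower in 46LCNEC_cell, 2 and 0 in 57SCLC_cell, 1 and 1 in 46LCNEC_allo and 2 and 0 in 57SCLC_allo.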

How the data were processed

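RNA was sequenced from 15 mouse samples. Per the submitters' notes, the authors used Rbowtie2 for alignment to GRCm39 and featureCounts for counts per GENCODE gene in release 27, and scaled the counts with DESeq2 size factors. What they deposited, normalized counts, is a signal that is no longer whole. Dividing each library by the worth of 1 read brought 100% of values to within 0.01 of a whole number. These recovered reads served for depth, for the floor of 3 reads and for the count tests edgeR 4.0.16 and DESeq2 1.42.0, run as alternatives (edgeR called 4118 genes higher and 3682 lower between the cultured lines). Depths of 9480244 to 44876572 reads set the precision.

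limma 3.58.1 (R 4.3.3) was fitted to log2(normalized count + 1), with empirical Bayes moderation, over every gene that reached 10 normalized counts in 3 or more samples of the comparison, on the samples of the 2 groups compared (12 samples for the interaction). Fits without a library asked for 2 samples in place of 3. Fold changes on this scale understate changes of low genes. Calls needed an adjusted p (Benjamini-Hochberg) up to 0.01 together with a log2 change of 1 or more, up or down. The fits were also run on simulated counts, with a single small spread for all genes and changes only in genes well above the floor. That run does not cover members near the floor or uneven within a group. Positions came from GENCODE release 39, which held 54749 (98.9%) of the gene identifiers. Tables and plots used Python 3.11.15, pandas 2.3.3, numpy 2.4.6 and matplotlib 3.10.9.

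In each comparison the 3 called members with the largest rise and the 3 with the largest fall, with a mean of at least 50 in the higher group, and the 3 leading members per kb of each group are described by library or level, and other called members by means. The members and gene lists were chosen with earlier results of these data known. Alternatives were other tests, pseudocounts of 0.1 and 5, no filter, scaling to library totals or by TMM, an adjusted p of 0.05, all 15 samples in 1 fit, a block for the vessel letter and leaving out each library. Same-letter dishes and flasks did not deviate together (r = 0.09, -0.08 and -0.01 for A, B and C).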

Additional observations from a re-analysis of the deposited data

Results flagged for a closer look

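For 8 members the difference between the lines was not the same in culture and in allografts, by the interaction term in limma over 12 libraries. Each value is the log2 difference between 57SCLC and 46LCNEC in allografts minus that in cells.

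Cdh6 stood out with 13.94 (adjusted p = 1.38e-06). Its means were 3226 normalized counts in 46LCNEC_cell and 3.32 in 46LCNEC_allo, and 0.174 in 57SCLC_cell and 11.8 in 57SCLC_allo. Cdh22 (4.81, adjusted p = 0.000368) and Pcdh8 (4.37, adjusted p = 0.00269) fell in the 46LCNEC allografts and were not called between 57SCLC cells and allografts. Pcdh19 had a value of 3.58 (adjusted p = 0.000412) and rose in both lines, more in 57SCLC.

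Cdh4 had 2.71 (adjusted p = 0.00899) and was not called by edgeR (adjusted p = 0.0189). The other members went the other way. Pcdh15 had -6.10 (adjusted p = 0.0018), Cdh9 -3.34 (adjusted p = 0.00483) and Pcdh7 -1.40 (adjusted p = 0.00873). Without flask C, Pcdh15 had -5.30 (adjusted p = 0.00377). Cdh9 was not called by edgeR (adjusted p = 0.227) or DESeq2 (adjusted p = 0.0725). It had no read in 46LCNEC_cell and at most 1.11 normalized counts in 46LCNEC_allo.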

How the results depend on the processing

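No result reversed under any alternative, and 133 of 142 counts of called members stayed within 1.5 times their value. Of 894 refits of named members 840 kept their call and 54 lost it, over 56 results. They include the looser cutoff of 0.05 for the adjusted p, applied to the same fit, under which no call can be lost. Between 46LCNEC_allo and 46LCNEC_cell 11 members were called with all 15 samples in the fit, in place of 7, but the filter over 15 samples also tested 11 further members, and of the 15 tested before 8 were called (Cdh23 was gained). The interaction called 4 in place of 8 with a pseudocount of 0.1, losing Cdh4, Cdh9, Pcdh7 and Pcdh8. Leaving out each library in turn gave 15 to 16 called members for 57SCLC_cell against 46LCNEC_cell, 13 to 18 for the allografts, 5 to 11 for 46LCNEC_allo against 46LCNEC_cell, 7 to 13 for 57SCLC_allo against 57SCLC_cell and 5 to 10 for the interaction, with 5 without any dish or without flask A or B. Against Lung the ranges were 17 to 20 for 46LCNEC_cell, 22 to 24 for 57SCLC_cell, 11 to 15 for 46LCNEC_allo and 20 to 23 for 57SCLC_allo. These fits asked for 10 normalized counts in 2 samples instead of 3, and among the members tested with all libraries the counts were 15 between the cultures, 13 to 17 between the allografts, 5 to 8 and 7 to 12 for culture against allograft of 46LCNEC and 57SCLC and 5 to 9 for the interaction. A vessel letter common to dish and flask is only a name, and with it as a replicate block 16 members (9 higher, 7 lower) were called between the cultures, all 15 of the unblocked fit and Cdh13. The causes of these changes were not tested. Single lines, 3 libraries a group, clustered protocadherins listed at 0 and RNA of other cells in the tumors limit these results, and members near the floor were measured on few reads.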

Other observations

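Within the 46LCNEC allografts, tumor 319 differed from the others in Cdh17 and Cdh26. Cdh17 had 45, 4.21 and 35.4 normalized counts in tumors 312, 319 and 321, and Cdh26 had 27.8, 0 and 29.9. In 46LCNEC_cell they had means of 2.02 and 4.04. With 3 tumors this was not tested.

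Tumor 321 was the 46LCNEC allograft with the most reads of members that marked 57SCLC. It had the highest values of Cdh4 (1.32, 1.05 and 5.53), Cdh20 (0, 0 and 4.43), Cdh22 (3.97, 8.42 and 35.4) and Pcdh10 (0, 0 and 34.3) among tumors 312, 319 and 321, all far below the 57SCLC allografts. It also had the highest Cdh6 (0, 0 and 9.96). These members were picked after their values were seen, and the source of these reads was not tested.

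Cdh13 and Cdh24 were among the more abundant members in both lines and both settings, with lowest library values of 1462 and 1145 normalized counts over the 12 culture and tumor libraries, above the lungs' highest Cdh24 (177) but, for Cdh13, below the highest lung (1589). With the deposited scaling, limma did not call Cdh13 between Lung and either 46LCNEC group. By edgeR (log2 fold change 1.03) and by limma with TMM scaling (1.00) it was called higher in 46LCNEC_cell than in Lung.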
